A study of Mus musculus with 6 samples.

Results

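The genes described here are Atf4 and its partners and early targets Ddit3, Atf3, Trib3 and Sesn2. With them are the serine and asparagine synthesis genes Phgdh, Psat1, Psph and Asns, and Shmt2, which uses serine. These genes were chosen by symbol, for their place in the amino acid stress response, and all 10 are among the 38124 genes of the deposited table. RNA was measured in 6 libraries of macrophages grown in culture from the bone marrow of wild type C57BL mice. In 3 libraries the cells were untreated. In the other 3 they had been given thymocytes killed with the glucocorticoid dexamethasone, at a stated ratio of 1:40, and were harvested at 24 hr once the dead cells had been taken off. The design text calls every sample a biological replicate. No group received dexamethasone alone or living thymocytes, so the effect of the dead cells and that of any dexamethasone they carried cannot be told apart. The title of the series asks how macrophages cope with the stress of taking up dying cells.

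ATF4 is a transcription factor whose mRNA is translated best when the initiation factor eIF2 alpha is phosphorylated. Kinases that sense missing amino acids, unfolded proteins in the endoplasmic reticulum, double-stranded RNA or heme shortage carry out that step. ATF4 then raises genes that import and make amino acids, and among them are the enzymes that build serine from glucose intermediates and asparagine from aspartate. Because much of this control acts on translation and on the protein, the mRNA level of Atf4 is not a measure of ATF4 activity. ATF4 binds DNA paired with a C/EBP family protein at a composite site, the C/EBP-ATF response element, whose core can be written TGATGNAA.

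The stretches that hold such a core, or a close variant of it, are shown first because they mark what some of the genes share in sequence. They are 60 bases each from the RefSeq promoter windows (250 bases before to 50 after a transcription start, GRCm38.p6), read 5′ to 3′ on the strand of the gene, with the match in capitals. All 4 lie in the 5′ flank of a RefSeq start and on the minus strand, at chr1:191183410-191183469 for Atf3, chr6:7693210-7693269 for Asns, chr2:152344061-152344120 for Trib3 and chr19:15925162-15925221 for Psat1.
Atf3: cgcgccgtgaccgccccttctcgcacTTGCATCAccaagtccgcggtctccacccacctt
Asns: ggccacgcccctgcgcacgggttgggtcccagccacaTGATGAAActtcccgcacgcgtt
Trib3: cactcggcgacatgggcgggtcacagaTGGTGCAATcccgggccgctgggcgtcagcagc
Psat1: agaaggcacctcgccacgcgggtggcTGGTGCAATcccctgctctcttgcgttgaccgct

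The core TGATGNAA was searched on both strands and was found for 3 of the 10 genes, Atf3, Asns and Trib3. In Atf3 it reads TTGCATCA on the strand of the gene, which is the reverse complement of the core, and its first base lies 110 bases before the start. In Asns it reads TGATGAAA, 23 bases before the RefSeq start, and the match lies inside the deposited span of that gene. The match in Trib3 begins 15 bases after the start. By comparison, 3.97% of the 32851 RefSeq windows held the core. The variant TGGTGCAAT stands 33 bases before the start of Trib3 and 136 bases before the start of Psat1 used here, which lies inside the deposited span of that gene and is 1 of 2 RefSeq starts listed for it. That variant was noticed by reading these windows, and 29 of all windows (0.0883%) held it. The full cyclic AMP response element TGACGTCA was in 1.79% of windows and in 0 of the 11 windows of the 10 genes. No match printed here overlaps another. A match describes letters and shows no binding.

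With apoptotic thymocytes 9 of the 10 genes were lower and 1, Sesn2, was higher (limma on log2(RPKM + 1), Benjamini-Hochberg adjusted p under 0.05 over all tested genes). RPKM are reads scaled by the length of the gene and the mapped reads of the library, so levels can be compared between genes. All 10 passed the expression filter of 1 RPKM in at least 3 libraries. Of the 10173 genes tested, 46.0% were lower and 18.8% higher, so falls were common in general. The median log2 change was -0.52 for the 10 genes and -0.13 for all tested genes. Falls beyond a log2 change of -1 were found in 3 of the 10, Asns, Atf3 and Phgdh, against 5.64% of tested genes. After median-of-ratios scaling Asns stayed beyond that size at -1.20, and Atf3 and Phgdh came to -0.99 each. The count of 3 also depends on the 1 RPKM added before the log, which compresses the changes of low genes. Psat1 was left out at -0.87, and with 0.1 RPKM added its log2 change was -1.14. In mean RPKM it fell 2.26-fold, against 2.22-fold for Atf3. The ranges of the groups did not overlap for any of the 10, as for 69.6% of tested genes.

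That general downward shift depends on how libraries are scaled. Median-of-ratios scaling, which brings the median gene to 0, moved the median log2 change by 0.13. Under it 1 of the 10 genes was higher and 7 lower, with 30.2% of 10157 tested genes higher and 29.8% lower. The calls of Ddit3 and Psph were the ones lost, and neither changed sign. Because the libraries are bulk RNA, fewer cells of a kind and less RNA per cell cannot be told apart.

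**Figure D1:**
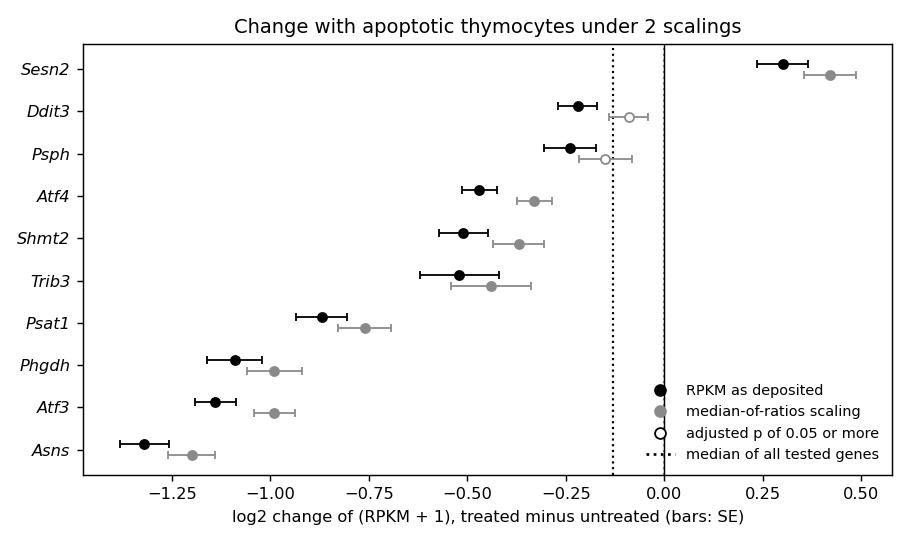
Change in log2(RPKM + 1), treated minus untreated, for each of the 10 genes (points, bars are SE). RPKM as deposited are in black and those after median-of-ratios scaling in grey. Open points did not pass, and dotted lines mark the median of all tested genes under each scaling. Asns lies lowest at -1.32 and Sesn2 is the single gene to the right of 0, at 0.30.

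The libraries had 19315132 to 25933208 mapped reads, recovered from the values, so that a single read adds 0.0386 to 0.0518 RPKM to a gene 1 kb long. All 8 macrophage markers were measured, with sums of 15600 to 16400 RPKM in untreated and 20100 to 22500 in treated libraries, most of it Lyz2. Of these markers 2 rose (Lyz2 and Mertk) and 6 fell (2 and 4 after median-of-ratios scaling), with Fcgr1 falling from 52.7 to 7.43 RPKM and Itgam from 119 to 33.1. Of 16 thymocyte markers, Cd3e, Cd8b1, Rag2, Ptcra and Themis were at 0 in all 6 libraries. The thymocyte list summed to 4.36 to 4.77 RPKM in untreated and 2.20 to 2.61 in treated libraries, nearly all of it Cd4, which was higher in the untreated cells. Without Cd4 the sums were 0.216 to 0.305 and 0.190 to 0.293 RPKM, made of 10 to 21 reads per library. What the changes in macrophage markers contribute to the results below was not tested.

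Among the regulators, Atf4 itself fell to 71.7% of its untreated level. Atf4 (ENSMUSG00000042406, chromosome 15, 80255184 to 80257540) stood at 91.4, 98.5 and 93.8 RPKM in the untreated libraries and at 66.7, 67.0 and 69.7 in the treated ones. Every treated library was below every untreated one, and the treated libraries lay close together. The means were 94.6 ± 3.59 and 67.8 ± 1.67 RPKM (SD, n = 3), and the log2 change was -0.47 (SE 0.0445, adjusted p = 1.55e-05, limma). With median-of-ratios scaling the log2 change was -0.33, and it passed there too.

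Atf3, a repressor and activator of the same leucine zipper family and an early stress gene, had the highest level of the 10 genes in both groups. Atf3 (ENSMUSG00000026628, chromosome 1, 191170296 to 191183340) was at 172, 186 and 176 RPKM untreated and at 76.0, 79.7 and 84.8 treated. The treated libraries were all at less than the lowest untreated one. The mean fell from 178 ± 6.76 to 80.2 ± 4.41 RPKM (SD, n = 3), a fold of 2.22, with a log2 change of -1.14 (SE 0.0524, adjusted p = 1.07e-07, limma).

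Ddit3 encodes CHOP, the C/EBP family factor linked to cell death in prolonged stress. Ddit3 (ENSMUSG00000025408, chromosome 10, 127290774 to 127296288) was at 11.2, 10.6 and 10.2 RPKM untreated and at 8.98, 9.22 and 8.92 treated. The groups did not overlap, but the distance between them was small. Its log2 change was -0.22 (SE 0.049, adjusted p = 0.00357, limma) as deposited, and it no longer passed under median-of-ratios scaling (-0.09, adjusted p = 0.165) or upper-quartile scaling (-0.06, adjusted p = 0.306). The gene overlaps Mars on the opposite strand by 68 bp. Mars stood at 11.5 RPKM untreated and 10.3 treated, and whether reads were assigned by strand is not given in the sources used here.

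Trib3 encodes a pseudokinase that ATF4 and CHOP induce and that restrains ATF4 in turn. Trib3 (ENSMUSG00000032715, chromosome 2, 152337422 to 152344032) was near the filter, at 1.41, 1.71 and 1.73 RPKM untreated and 0.617, 1.12 and 0.779 treated, or 58, 87 and 85 against 34, 54 and 39 reads. Of the treated libraries only the second reached 1 RPKM, and the groups did not overlap. The log2 change was -0.52 (SE 0.101, adjusted p = 0.00174, limma), and the mean RPKM was 1.93-fold lower.

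Sesn2 went the other way. It encodes sestrin 2, a leucine-binding inhibitor of the growth kinase complex mTORC1. Sesn2 (ENSMUSG00000028893, chromosome 4, 132492032 to 132510501) was at 4.31, 4.29 and 4.39 RPKM untreated and at 5.34, 5.17 and 6.15 treated. The untreated libraries were almost equal, and treated replicate 3 was the highest of all. The mean rose 1.28-fold, from 4.33 ± 0.0559 to 5.55 ± 0.523 RPKM (SD, n = 3), with a log2 change of 0.30 (SE 0.0637, adjusted p = 0.00311, limma). Gm12981, which overlaps it by 6089 bp on the same strand, was near 0, at means of 0.0224 and 0.0463 RPKM.

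All 5 enzyme genes, Shmt2 included, fell, and 4 of them also did so with median-of-ratios scaling. Their median log2 change was -0.87, against -0.47 for the 5 regulators. Asns encodes asparagine synthetase, which moves an amide group from glutamine to aspartate. Asns (ENSMUSG00000029752, chromosome 6, 7675169 to 7693254) was at 8.16, 9.54 and 8.65 RPKM untreated and at 2.97, 2.95 and 2.81 treated. No treated library came near the untreated range, and the treated values were close to each other. The mean fell 3.02-fold, from 8.79 ± 0.702 to 2.91 ± 0.0896 RPKM (SD, n = 3), with the largest log2 change of the 10 genes, -1.32 (SE 0.0618, adjusted p = 1.23e-07, limma).

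The serine pathway has 3 steps, and their genes fell by unequal amounts. Phgdh encodes 3-phosphoglycerate dehydrogenase, the first enzyme. Phgdh (ENSMUSG00000053398, chromosome 3, 98313170 to 98339990) was at 3.14, 3.42 and 3.26 RPKM untreated and 0.838, 1.13 and 1.08 treated, 151 to 203 against 54 to 64 reads. The groups were far apart, and treated replicate 1 was the lowest. Its mean RPKM fell 3.23-fold, the largest ratio of the 10 genes, with a log2 change of -1.09 (SE 0.0698, adjusted p = 1.13e-06, limma).

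Psat1 encodes phosphoserine aminotransferase, the next enzyme. Psat1 (ENSMUSG00000024640, chromosome 19, 15904678 to 15947337) was at 4.17, 4.25 and 4.63 RPKM untreated and 1.71, 1.99 and 2.07 treated. Treated libraries were all under the untreated range, and replicate 1 was again the lowest. The mean fell 2.26-fold (log2 change -0.87, SE 0.0657, adjusted p = 3.32e-06, limma).

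Psph encodes phosphoserine phosphatase, which releases serine in the last step, and it changed least of these 3 genes. Psph (ENSMUSG00000029446, chromosome 5, 129765558 to 129787252) was at 1.82, 1.72 and 1.81 RPKM untreated and 1.17, 1.46 and 1.44 treated. The groups did not overlap, although treated replicates 2 and 3 came close to the untreated ones. The log2 change was -0.24 (SE 0.0657, adjusted p = 0.0104, limma), and it no longer passed under median-of-ratios (-0.15, adjusted p = 0.081) or upper-quartile scaling (-0.14, adjusted p = 0.113).

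The ratio of Phgdh to Psph within a library is not affected by scaling. It was 1.73, 1.98 and 1.81 untreated and 0.714, 0.776 and 0.747 treated. Phgdh thus stood above Psph in every untreated library and below it in every treated one. This pair was chosen after the values were seen, so no test is given.

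Shmt2 encodes the mitochondrial enzyme that turns serine into glycine and a one-carbon unit on folate. Shmt2 (ENSMUSG00000025403, chromosome 10, 127517123 to 127522444) was at 16.0, 14.5 and 15.2 RPKM untreated and 9.60, 10.3 and 11.2 treated. The groups were clear of each other. The mean fell 1.46-fold (log2 change -0.51, SE 0.0624, adjusted p = 9.21e-05, limma).

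**Figure D2:**
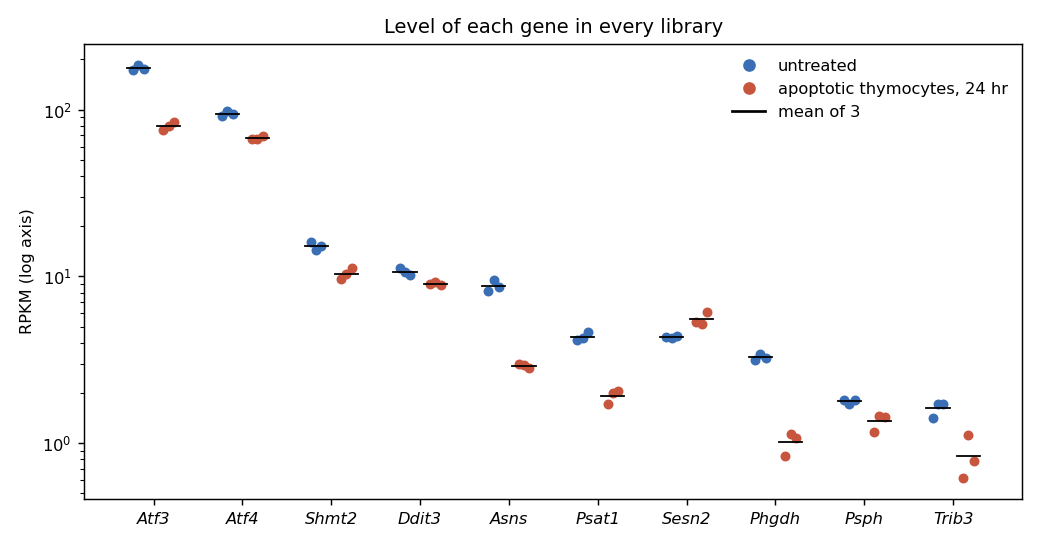
RPKM (log axis) of the 10 genes in each library, untreated in blue and with apoptotic thymocytes for 24 hr in red, with lines at the mean of 3. Treated points lie below untreated points for 9 genes and above them for Sesn2, and Atf3 and Atf4 stand far above the others in both groups.

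In order of level, untreated cells had Atf3, Atf4, Shmt2, Ddit3, Asns, Psat1, Sesn2, Phgdh, Psph and Trib3. Ranges of neighbours in that order overlapped for Psat1 and Sesn2 and for Psph and Trib3. In treated cells the first 4 places were the same, and Sesn2 came next, above Asns, Psat1, Psph, Phgdh and Trib3. Only Phgdh and Trib3 overlapped there. The gap between Atf3 and Atf4 narrowed to 80.2 against 67.8 RPKM.

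Other genes of the pathway were taken from 9 lists that hold 81 genes. Of these 60 were tested, and 26 were higher, 20 lower and 14 not called. After median-of-ratios scaling these counts were 33 higher and 15 lower. The shares over all tested genes to set them against are the 18.8% higher and 46.0% lower given above, or 30.2% and 29.8% after that scaling. Ddit4, Slc6a9, Slc7a5 and Mthfd1l reached 1 RPKM in the libraries of 1 group alone, the group where each is high, so they had to differ to be tested and their calls add no support to the counts of their lists. The median log2 change of all 60 tested genes of the lists was 0.06, beside -0.13 for all tested genes. It includes the genes just named, and the lists were chosen with earlier results of these data known. It is a description only. The lists were split inside, and several well-known ATF4 targets rose while the 9 genes above fell.

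Upstream of ATF4, of 7 genes for eIF2 alpha, its kinases and its phosphatase subunits, 3 rose, 2 fell and 2 did not pass. The PERK gene Eif2ak3, which answers to unfolded proteins, rose with a log2 change of 0.31 (adjusted p = 0.000367, limma). The GCN2 gene Eif2ak4, which answers to uncharged tRNA, rose by 0.28 on the same scale, as did the phosphatase subunit gene Ppp1r15b. Eif2ak2, which encodes the double-stranded RNA sensor PKR, fell from 12.2 ± 0.54 to 6.44 ± 0.929 RPKM (log2 change -0.84). Eif2s1, which encodes eIF2 alpha itself, fell by 0.22, a call lost with median-of-ratios scaling (adjusted p = 0.258) and upper-quartile scaling (0.434). Ppp1r15a, the stress-induced phosphatase subunit gene, was at 13.5 and 13.1 RPKM and did not pass.

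Leucine zipper genes that pair or compete with ATF4 were mostly higher, with 5 of 7 up, 1 down and 1 not passed. After median-of-ratios scaling 6 were up and 1 down. Atf5, the closest relative of Atf4, which is also controlled through translation, was at 22.1, 23.0 and 22.0 RPKM untreated and at 114, 113 and 124 treated. The groups were far apart, in the direction opposite to Atf4 (log2 change 2.34, SE 0.048, adjusted p = 8.29e-10, limma). In untreated libraries the ratio of Atf5 to Atf4 was 0.241, 0.234 and 0.234, and in treated libraries 1.71, 1.69 and 1.77. Jdp2, a repressor related to Atf3, was at 4.90, 4.89 and 4.49 RPKM untreated and at 34.0, 36.4 and 37.8 treated (log2 change 2.68). The ratio of Jdp2 to Atf3 was 0.0268 ± 0.00148 and 0.45 ± 0.00554 in the groups (SD, n = 3). Cebpb rose 1.79-fold to 90.8 ± 7.54 RPKM, Cebpd 2.15-fold to 27.0 ± 1.52 and Cebpa 1.24-fold to 97.3 ± 8.18. Nfe2l2, which encodes the oxidative stress factor NRF2, was the one that fell, from 82.3 ± 2.04 to 44.8 ± 0.53 RPKM (log2 change -0.86).

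**Figure D3:**
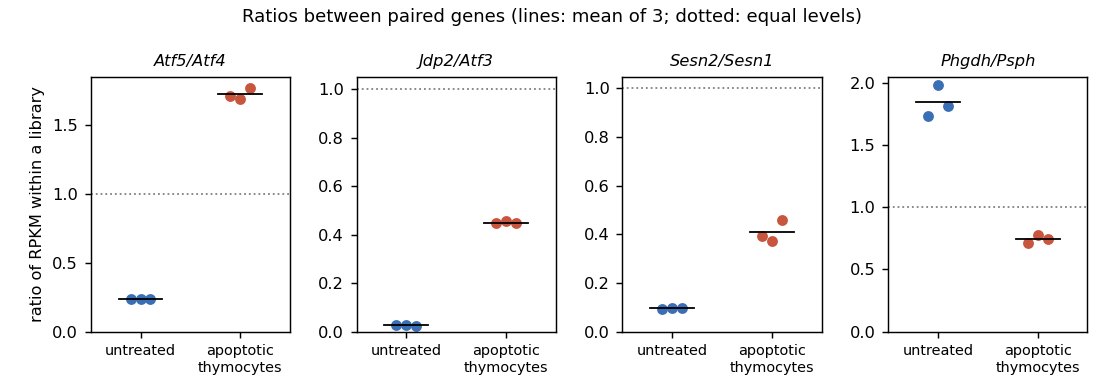
RPKM of the first gene divided by that of the second within each library (points, lines at the mean of 3), for 4 pairs chosen after the values were seen; the dotted line marks equal levels. Atf5/Atf4 crosses from below 1 in the 3 untreated libraries to above 1 in the 3 treated ones, and Phgdh/Psph crosses the other way.

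Of 16 further ATF4 targets 10 were tested, and 5 rose, 2 fell and 3 did not pass. After median-of-ratios scaling 6 were higher and 2 lower. Ddit4, an mTORC1 inhibitor like the sestrins, was at 0.553, 0.794 and 0.746 RPKM untreated and at 55.6, 63.0 and 65.3 treated. The treated levels lay just below those of Atf4 itself (log2 change 5.20, adjusted p = 1.48e-10, limma). Ddit4 was below 1 RPKM in every untreated library and so entered the test through the treated group alone. With no filter its adjusted p was 2.72e-07. The secreted stress cytokine gene Gdf15 rose 2.96-fold to 22.8 ± 1.64 RPKM, Herpud1, a gene of endoplasmic reticulum protein disposal, 1.94-fold to 14.4 ± 1.48, and the translation inhibitor gene Eif4ebp1 1.82-fold to 55.4 ± 7.18. The genes that fell were Pck2, a mitochondrial enzyme of phosphoenolpyruvate synthesis, from 7.10 ± 0.52 to 4.42 ± 0.423 RPKM, and Aldh18a1, of proline synthesis, from 3.26 ± 0.20 to 2.03 ± 0.169. Chac1, Vldlr, Stc2, Cth and Pycr1 were below the filter, at means of at most 0.409 RPKM, and Fgf21 was at 0 in all libraries.

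Amino acid carriers were split, with 3 of 7 tested genes higher and 4 lower (3 and 3 with median-of-ratios scaling). Slc6a9 and Slc7a5 entered these counts through 1 group alone, and without any library of that group they were not tested. Slc7a11, the cystine importer chain of system xc-, was at 1.69, 1.47 and 1.70 RPKM untreated and at 40.5, 36.3 and 30.9 treated. It went from one of the lower carriers of the list to the second highest (log2 change 3.81, SE 0.09, adjusted p = 1.76e-09, limma). Slc3a2, the shared heavy chain, rose 1.65-fold to 183 ± 7.54 RPKM, and the glycine carrier gene Slc6a9 rose from 0.127 ± 0.0188 to 1.07 ± 0.105 (adjusted p = 1.73e-05 with no filter). In contrast the arginine and lysine carrier gene Slc7a1 fell from 3.97 ± 0.117 to 1.49 ± 0.104 RPKM, the leucine carrier chain gene Slc7a5 from 2.01 ± 0.288 to 0.756 ± 0.0722 (adjusted p = 0.000546 with no filter) and the glutamine carrier gene Slc1a5 from 9.09 ± 0.193 to 5.39 ± 0.0574. Slc38a2, a neutral amino acid carrier gene, fell by 0.24 on the log2 scale, a call lost with median-of-ratios scaling (adjusted p = 0.0777) and upper-quartile scaling (0.176). Slc1a4, Slc7a3 and Slc43a1 were below the filter, and the treated mean of Slc1a4 was 0.236 RPKM against 0.843 untreated.

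Folate one-carbon and glycine genes fell in 5 of 6 tested cases, and in 4 with median-of-ratios scaling or without any of the untreated libraries, where Mthfd1l was not tested. Mthfd2, the mitochondrial enzyme that takes over the one-carbon unit made by Shmt2, was at 11.7, 12.3 and 11.9 RPKM untreated and at 3.12, 3.48 and 3.34 treated. The groups were well apart (log2 change -1.59, SE 0.0519, adjusted p = 1.38e-08, limma). Aldh1l1, which oxidises cytosolic formyl-folate, fell 3.14-fold to 1.58 ± 0.176 RPKM and Mthfd1l, which releases formate in mitochondria, 3.09-fold to 0.764 ± 0.0151 (adjusted p = 3.03e-05 with no filter). Gcsh, a carrier protein gene of glycine cleavage, fell 1.40-fold, and Mthfd1, the gene of a cytosolic enzyme with several folate activities, fell by 0.24 on the log2 scale, a call lost with median-of-ratios (adjusted p = 0.103) and upper-quartile scaling (0.204). Mthfs, a folate salvage enzyme gene, rose 1.43-fold to 19.9 ± 0.218 RPKM. Shmt1, Mthfd2l, Aldh1l2, Gldc and Amt were below the filter, with Shmt1, the cytosolic partner of Shmt2, at 0.590 and 0.571 RPKM.

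The genes around asparagine and serine use moved less evenly. Of 5 tested aspartate, asparagine and glutamine genes, 1 rose, 2 fell and 2 did not pass. Under median-of-ratios scaling 2 were higher and 1 lower. The one that rose with RPKM as deposited was Glul, which encodes glutamine synthetase, the maker of the amide donor of Asns. Glul was at 73.4, 73.8 and 72.6 RPKM untreated and at 197, 207 and 221 treated, a clear separation (log2 change 1.49, adjusted p = 1.41e-08, limma). Got2 fell by 0.20 (adjusted p = 0.0407), a call lost with both scalings, with no filter, with no intensity trend and without 4 of the 6 libraries in turn (untreated replicates 2 and 3, treated replicates 1 and 2, adjusted p of 0.094 to 0.12). Of the serine-using genes, Sptlc2, a subunit of the enzyme that starts sphingolipid synthesis, rose 1.48-fold to 20.5 ± 0.341 RPKM, while Sptlc1 and Srr did not pass.

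Around Sesn2 and Trib3, 8 sestrin, tribbles and GATOR complex genes were tested, of which 1 rose, 2 fell and 5 were not called (3 up and 2 down after median-of-ratios scaling). Sesn1, the sestrin gene best known as a p53 and FOXO target, was at 45.2, 44.9 and 44.6 RPKM untreated and at 13.6, 13.9 and 13.3 treated. It fell in the opposite direction to Sesn2 and from a far higher level (log2 change -1.65, SE 0.0397, adjusted p = 1.95e-09, limma). Sesn2 relative to Sesn1 was 0.0964 ± 0.0018 untreated and 0.408 ± 0.0465 treated (SD, n = 3), so Sesn1 remained the more abundant. Trib1, a pseudokinase gene that promotes loss of C/EBP alpha protein, fell 1.75-fold to 2.55 ± 0.182 RPKM. Nprl2, a GATOR1 subunit gene, rose by 0.19 on the log2 scale, a call lost without untreated replicate 3 (adjusted p = 0.0611).

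The other arms of the unfolded protein response, which do not run through ATF4, had 6 of 8 genes higher and 2 lower (6 and 1 with median-of-ratios scaling). Hspa5, which encodes the chaperone BiP, was at 125, 129 and 126 RPKM untreated and at 281, 288 and 264 treated (log2 change 1.12, adjusted p = 5.81e-08, limma). Xbp1, the factor activated by IRE1, rose 1.78-fold to 60.2 ± 3.41 RPKM, and Edem1, of protein disposal, rose 1.14-fold to 59.3 ± 0.676. Atf6b was the weakest of the 6, with a log2 change of 0.13 (adjusted p = 0.0259). It did not pass when any of the untreated replicates 1, 2 and 3 was left out (adjusted p of 0.105, 0.0585 and 0.066) or when treated replicate 2 was (0.0834). The sensor gene Atf6 fell 1.40-fold to 17.4 ± 0.58 RPKM.

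**Figure D4:**
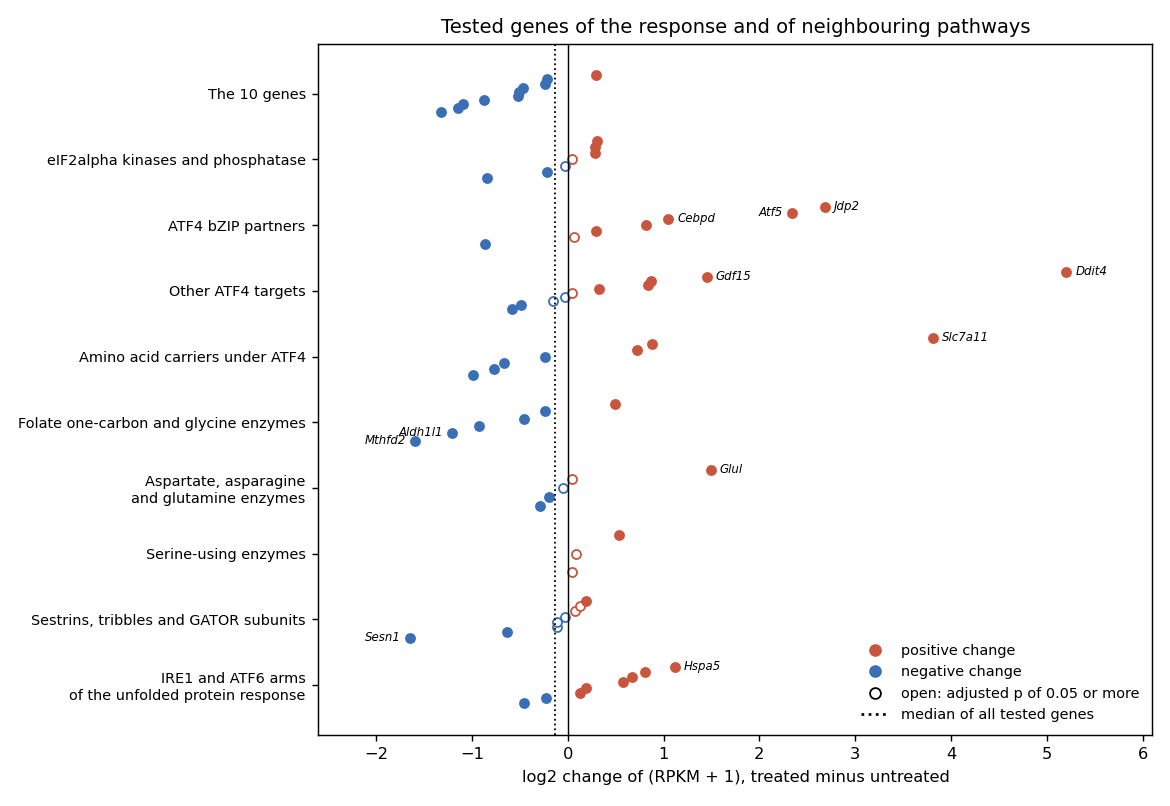
Change in log2(RPKM + 1), treated minus untreated, for the tested genes of each list. Red is for positive and blue for negative change, open points are for genes that did not pass, and a dotted line marks the median of all tested genes (-0.13). The 10 genes lie left of 0 apart from Sesn2, while Ddit4 at 5.20, Slc7a11 at 3.81, Jdp2 at 2.68 and Atf5 at 2.34 lie far to the right.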

How the data were processed

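The authors deposited RPKM for 38124 genes, with 1 column per library, per the file headers. The submitters' processing notes and the labels name GRCm38 (mm10) as the build, and libraries came from a stranded mRNA kit, per the labels' protocols. How reads were aligned, counted, assigned by strand and shared among similar places, and which annotation release was used, is not given in the sources used here, so genes with near-identical copies are uncertain. All value columns could be tied to a sample by title (0 left over). Gene coordinates were taken from the same table.

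Genes that reached 1 RPKM in 3 or more libraries were tested with limma 3.58.1 (R 4.3.3) on log2(RPKM + 1), with an intensity trend and group as the only term. Log2 changes on this scale understate those of genes near 1 RPKM. Folds are ratios of mean RPKM. P values were adjusted over all tested genes by the Benjamini-Hochberg method. The procedure was tested on simulated data in which a small set of genes changed, as many up as down. That test does not bear on the choice of scaling. Depth was recovered as the number of mapped reads, given annotated exon lengths, at which the most genes came to exactly 1 read. With those lengths 49.8% to 50.2% of genes above 0 in a library gave whole reads. For a listed gene whose reads were not whole (within 0.001 reads), the smallest length that made them whole was used. Such read numbers can be too low. Read numbers speak to counting error only. Summaries were made with numpy 2.4.6 and pandas 2.3.3 (Python 3.11.15).

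The 10 genes and all 12 lists (9 pathway lists, the 10 genes and 2 marker lists) were chosen with earlier results of these data known. From each list the text names the 3 tested genes with the highest mean RPKM and the 3 with the smallest p, and genes below the filter. Of the genes picked this way, 1 is not reported here. Other list genes were named after their values were seen, mostly where 5 or fewer stood in a count, and so were the pairs used for ratios and the motif TGGTGCAAT. Alternatives were a pseudocount of 0.1, no filter, median-of-ratios and upper-quartile scaling, no trend, a replicate block, and leaving out each library.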

Additional observations from a re-analysis of the deposited data

How the results depend on the processing

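Of 120 values of the 10 genes under 12 alternatives, 116 kept direction and call, 4 lost the call (Ddit3 and Psph under both scalings) and 0 changed sign. Counts over all tested genes moved with scaling, to 3064 higher and 3023 lower with median-of-ratios and 3280 higher and 2814 lower with upper-quartile scaling, from 1915 and 4679. For the 60 pathway genes 12 values do not exist, because Ddit4, Slc6a9, Slc7a5 and Mthfd1l fell below the filter without any 1 library of the group where each is high. Of the other 708 values, 658 were the same, 21 lost and 17 gained a call, and 12 changed sign, in 6 genes that passed neither as deposited nor where the sign turned. With median-of-ratios and upper-quartile scaling the log2 changes turned to 0.04 and 0.06 for Asrgl1, 0.07 and 0.09 for Depdc5 and 0.11 and 0.13 for Ppp1r15a, and with upper-quartile scaling to 0.00 for Mios and Nprl3. Leaving out 1 library gave -0.09 to 0.00 for Ppp1r15a and -0.02 to 0.08 for Srr. Same-numbered libraries of the groups did not deviate together (r of 0.197, -0.031 and -0.162). Differently numbered ones gave r of -0.319 to 0.326, and groups of 3 are too few for this check to exclude a pairing. With a replicate block 1 of the 10 genes was higher and 9 lower, and 1904 and 4627 of all tested genes. Reads limit Trib3 most, with 34 to 54 per treated library. The calls of Ddit3 and Psph depended on the scaling used, and both were kept when any 1 library was left out. Which scaling is right was not tested, so these small changes stay undecided.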
